A study of Mus musculus with 6 samples.

Results

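The 10 genes Hif1a, Epas1, Vegfa, Vegfb, Vegfc, Egln1, Egln3, Angpt1, Angpt2 and Adm, of the hypoxia response and of blood vessel growth, were followed in the adipocyte fraction of epididymal fat. They were picked by symbol for their roles, with earlier results of these data known, and are 10 of the 35122 genes counted. RNA was sequenced from 3 control mice and 3 aPU.1KO mice, all male C57BL/6 on a chow diet, with 1 library per mouse. Both groups carry loxP-flanked alleles of Spi1, the gene of the transcription factor PU.1, and are labelled PU.1 fl/fl (control) and AdipoqCre_PU.1 fl/fl (aPU.1KO). The aPU.1KO mice also express Cre from the adiponectin promoter, which is active in adipocytes. Since no library carries Cre without the floxed alleles, an effect of Cre itself and of the deletion cannot be told apart. By their labels the mice were 10 to 11 months old, while the paper describes the mice as older. The paper reports that older males with the deletion weighed less and had less fat than their controls. No body weight or fat mass entered the comparisons here, so differences in adiposity and in genotype were not separated. The part of adiposity in the values below, Lep included, was not tested. The fraction is the layer that floats after collagenase digestion and was not sorted further.

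The transcription factor subunits HIF1A and EPAS1 (HIF-2 alpha) are made continuously and degraded while oxygen is plentiful. EGLN1 and EGLN3 are prolyl hydroxylases that use oxygen to mark them for degradation by the VHL complex, and when oxygen is scarce the subunits accumulate and switch on genes of glycolysis, vessel growth and matrix modification. This control acts mainly on the proteins, so that the RNA of Hif1a and Epas1 does not report HIF activity. VEGFA is the main growth factor for blood vessels and is secreted by adipocytes, VEGFB binds the receptor FLT1, and VEGFC acts on lymphatic vessels through FLT4. ANGPT1 and ANGPT2 are ligands of the endothelial receptor TEK, and adrenomedullin (Adm) is a vasodilator peptide. In fat, capillary growth accompanies the expansion of adipocytes.

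Promoters are shown for the 4 secreted factors on which the comparisons below turn, because HIF acts through a short DNA motif whose core was searched as ACGTG or GCGTG on both strands. Each sequence holds the 250 bases before the transcription start, 5′ to 3′ on the strand of the gene, from RefSeq annotation of GRCm38.p6, and capitals mark the core. The Vegfa window is chr17:46032378-46032627 on the minus strand and the Vegfb window chr19:6987652-6987901 on the minus strand. The Vegfc window is chr8:54077282-54077531 and the Adm window chr7:110627407-110627656, both on the plus strand.
Vegfa: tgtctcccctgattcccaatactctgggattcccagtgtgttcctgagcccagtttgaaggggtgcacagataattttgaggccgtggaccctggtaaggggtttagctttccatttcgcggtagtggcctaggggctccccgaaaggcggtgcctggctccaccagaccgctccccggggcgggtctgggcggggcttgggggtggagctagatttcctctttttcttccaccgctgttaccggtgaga
Vegfb: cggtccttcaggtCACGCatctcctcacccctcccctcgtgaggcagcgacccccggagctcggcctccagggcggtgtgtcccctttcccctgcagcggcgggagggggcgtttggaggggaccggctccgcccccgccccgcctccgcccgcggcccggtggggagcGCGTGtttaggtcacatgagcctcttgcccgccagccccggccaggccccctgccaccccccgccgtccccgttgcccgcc
Vegfc: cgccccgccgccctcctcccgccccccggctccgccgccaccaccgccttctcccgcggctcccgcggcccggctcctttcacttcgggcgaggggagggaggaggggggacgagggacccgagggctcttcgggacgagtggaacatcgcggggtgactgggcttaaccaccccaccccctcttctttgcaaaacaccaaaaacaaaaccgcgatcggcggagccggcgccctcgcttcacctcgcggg
Adm: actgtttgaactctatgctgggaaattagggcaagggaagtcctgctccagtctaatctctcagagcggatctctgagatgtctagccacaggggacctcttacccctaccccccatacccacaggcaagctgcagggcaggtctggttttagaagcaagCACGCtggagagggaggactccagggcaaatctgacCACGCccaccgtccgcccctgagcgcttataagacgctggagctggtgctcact
The Vegfb window held the core 81 and 237 bases before the start, and the Adm window 54 and 90 bases before it. The Vegfa and Vegfc windows held none, although a window at a second, inner start of Vegfa (chr17:46025164-46025413) held 2. Sites farther than 250 bases before a start, or elsewhere in a gene, were not searched, so a window without the core does not mean a gene without it. Windows were given for 7 of the 10 genes, and Hif1a had 3 matches, Egln1 2 and Egln3 1. The core was thus in 5 of the 7 outermost windows, beside 38.6% of 32851 windows of all genes, and a match is a description of the letters only. Both cores contain CG, and the background was not matched for GC content, which was 50.8% (Egln3) to 86.0% (Egln1) in these 7 windows. The windows of all genes can also include several per gene. The core of the PU box, the motif of PU.1, searched as GAGGAA on both strands, was in 3 of the 7 windows (Vegfa, Egln1 and Egln3, 1 match each), beside 23.3% of all windows. Followed by GT, as first searched, it was in 0 of the 7, beside 2.44% of all windows. Epas1, Angpt1 and Angpt2 had no window in the table.

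Total counts per library lay between 20550252 and 69283842, with control mouse 1 the deepest. Spi1 was counted at 24.3, 6.35 and 26.7 CPM (counts scaled to library size and composition) in control mice 1, 2 and 3 and at 3.20, 1.22 and 4.17 CPM in aPU.1KO mice 1, 2 and 3, a log2 fold change of -2.75 (SE 0.64, edgeR adjusted p = 0.0788, DESeq2 adjusted p = 7.38e-05, up to 0.313 under the other alternatives). Macrophages also express Spi1, and of 16 macrophage markers 14 were lower in aPU.1KO at an unadjusted edgeR p under 0.05, beside 13.7% of all genes, among them Csf1r and Ptprc, with Mrc1 also passing the adjusted threshold (log2 fold change -1.70, edgeR adjusted p = 0.0389). Their summed level was 529 to 1665 CPM in control, lowest in mouse 2, and 281 to 366 CPM in aPU.1KO. Their part in the values below was not tested. In RNA from a mixed fraction, fewer cells of a type and less RNA per cell cannot be told apart. All 13 adipocyte markers were detected, and 10 were higher in aPU.1KO at an unadjusted p under 0.05, beside 11.9% of all genes. The median log2 fold change over the list was 0.43, and Cfd, Slc2a4 and Adipoq were among the 10. Of 15 endothelial markers 4 were lower (median -0.48; Vwf, Plvap and Sox17 had the smallest p), and the marker counts for mural cells, fibroblast-like progenitors, mesothelium and hepatocytes were 6 of 10, 8 of 11, 0 of 7 and 8 of 9 lower. Pdgfrb and Fbn1 of these lists passed the adjusted threshold (log2 fold changes -0.95 and -1.91, edgeR adjusted p = 0.0491 and 0.0268), as did the hepatocyte genes Apoa1, Ttr and Fgg (edgeR adjusted p = 0.0268, 0.0448 and 0.0457), which were at 0.832 CPM or more in every control mouse and at 0.136 CPM or less in every aPU.1KO mouse. Without control mouse 1 edgeR called 0 genes in all.

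The question here was whether the 10 genes differed between aPU.1KO and control adipocytes. The 3 VEGF ligands among the members did not share a direction. No control mouse reached the Vegfa or Vegfb level of any aPU.1KO mouse, and for Vegfc the order was opposite. Angpt2 and Hif1a were also lower in every aPU.1KO mouse, while Epas1, Egln1, Egln3, Angpt1 and Adm overlapped between the groups. No member passed an adjusted p of 0.05 with edgeR's quasi-likelihood test, which called 0.237% of the 13925 genes tested. At an unadjusted p under 0.05, 2 members were higher (Vegfa, Vegfb) and 2 lower (Vegfc, Angpt2), where 11.9% of all genes tested were higher and 13.7% lower. Without overlap between the groups there were 2 higher and 3 lower members, beside 16.7% and 15.5% of all genes. With only 10 members, these counts do not set them apart from all genes. DESeq2, the tool named in the methods of the study, passed Vegfa, Vegfb and Vegfc at an adjusted p under 0.05, where it called 3.73% of 16100 genes higher and 7.87% lower. The median log2 fold change of the 10 members was 0.15, and that of all genes 0.01.

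**Figure D1:**
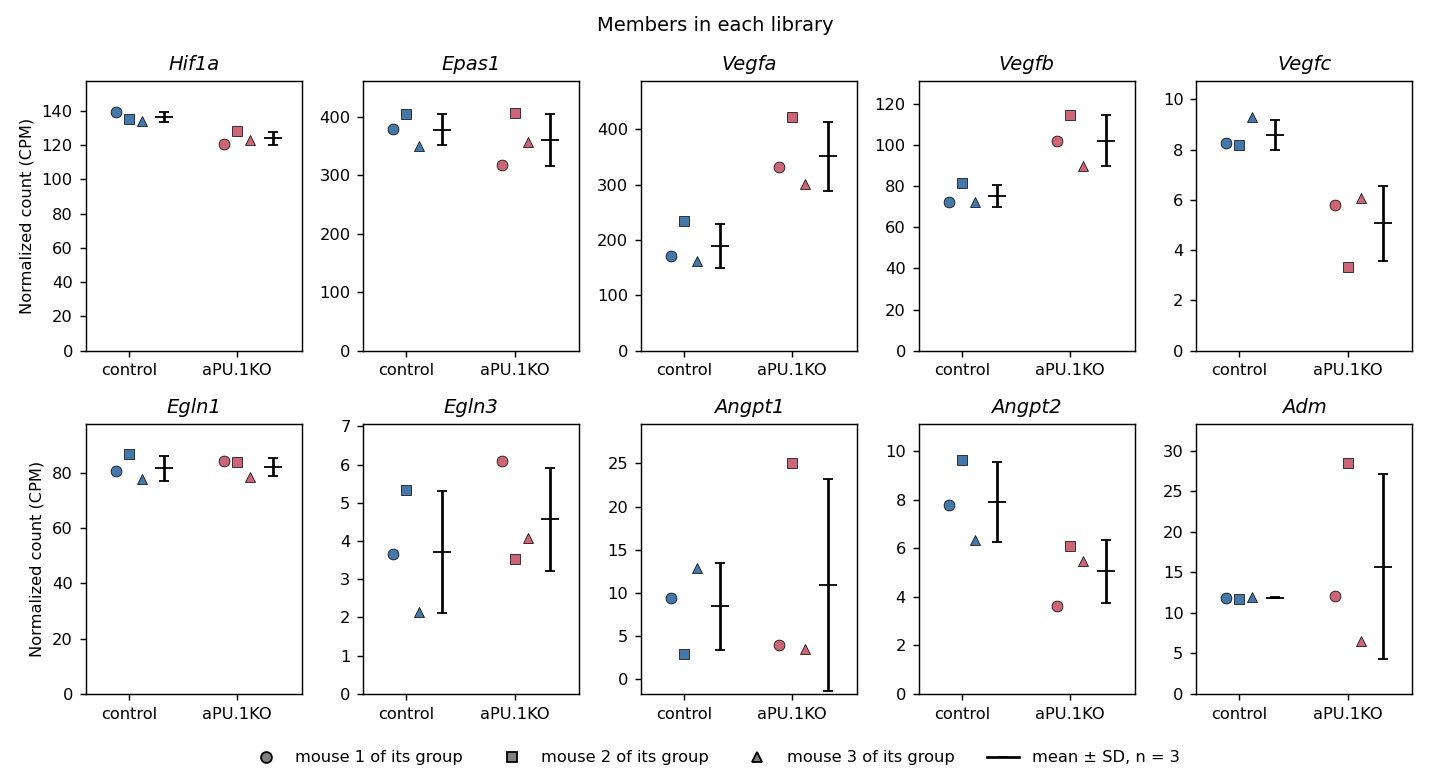
Normalized counts (CPM, vertical axis, a separate scale in each panel) of the 10 genes in the 3 control and 3 aPU.1KO mice, 1 point per mouse, with bars for the mean and SD of each group (n = 3). Vegfa and Vegfb lie higher and Vegfc, Angpt2 and Hif1a lower in all aPU.1KO mice, and aPU.1KO mouse 2 stands above the rest for Angpt1 and Adm, where the lower SD bar of Angpt1 passes below 0.

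Among the HIF subunits, Hif1a (ENSMUSG00000021109, chr12:73901375-73947530, GRCm38) was counted at 139.5, 135.0 and 134.1 CPM in control mice and at 120.8, 128.1 and 123.0 CPM in aPU.1KO mice. The groups did not overlap but lay close, with 136.2 ± 2.88 CPM against 124.0 ± 3.76 CPM (SD, n = 3) and a log2 fold change of -0.14 (SE 0.07, 95% interval -0.30 to 0.02, edgeR adjusted p = 0.253). Exons of Hif1a overlap the antisense gene Gm15283 over 330 bases and Gm49321, on the same strand, over 148 bases, so reads there could be assigned to either. Epas1 (ENSMUSG00000024140, chr17:86753700-86833410) was at 379.3, 404.1 and 350.0 CPM in control and at 317.2, 406.8 and 356.0 CPM in aPU.1KO. Its groups overlapped, with a log2 fold change of -0.07 (95% interval -0.35 to 0.21, edgeR adjusted p = 0.738). The log2 ratio of Epas1 to Hif1a counts was 1.47 ± 0.10 in control and 1.53 ± 0.14 in aPU.1KO (SD, n = 3), and did not differ beyond this spread (exact two-sided permutation p = 0.6, where 3 against 3 cannot go below 0.1).

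Of the hydroxylases, Egln1 (ENSMUSG00000031987, chr8:124908587-124949324), the main oxygen sensor of the family, had 80.6, 86.5 and 77.7 CPM in control and 84.2, 83.9 and 78.3 CPM in aPU.1KO. Its log2 fold change was 0.01 with a narrow 95% interval of -0.17 to 0.18 (edgeR adjusted p = 0.95). Egln3 (ENSMUSG00000035105, chr12:54178981-54203860), which HIF itself induces in many cells, was low, at 3.65, 5.34 and 2.14 CPM in control and 6.10, 3.53 and 4.07 CPM in aPU.1KO. The mice of each group spread widely and the groups overlapped (log2 fold change 0.30, 95% interval -0.58 to 1.18, edgeR adjusted p = 0.645). The log2 ratio of Egln3 to Egln1 was -4.56 ± 0.59 in control and -4.21 ± 0.40 in aPU.1KO (exact two-sided permutation p = 0.5).

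Vegfa (ENSMUSG00000023951, chr17:46016993-46032369, 13 annotated transcripts) was counted at 170.2, 234.5 and 161.8 CPM in control mice and at 331.6, 421.1 and 300.4 CPM in aPU.1KO mice. The lowest aPU.1KO mouse was above the highest control mouse, and mouse 2 was the highest of each group. The means were 188.8 ± 39.8 and 351.1 ± 62.6 CPM (SD, n = 3), a 1.86-fold difference with a log2 fold change of 0.90 (SE 0.19, 95% interval 0.45 to 1.34, edgeR adjusted p = 0.0766, DESeq2 adjusted p = 0.000495). Without control mouse 2 the log2 fold change was 1.07 (edgeR adjusted p = 0.0164), and over the mice left out it ran from 0.74 to 1.07. Over all alternatives its adjusted p ran from 0.000495 to 0.313. The counts are summed over transcripts, so that the secreted isoforms of VEGFA, which differ in how they bind the matrix, were not separated.

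Vegfb (ENSMUSG00000024962, chr19:6982473-6987651) was at 72.3, 81.6 and 72.4 CPM in control and at 101.8, 114.9 and 90.1 CPM in aPU.1KO. All aPU.1KO mice were above all control mice, by less than for Vegfa: the means were 75.5 ± 5.33 and 102.3 ± 12.4 CPM, 1.36-fold apart (log2 fold change 0.44, SE 0.11, 95% interval 0.18 to 0.70, edgeR adjusted p = 0.0856, DESeq2 adjusted p = 0.0177). Its adjusted p under the alternatives ran from 0.0177 to 0.353. The log2 ratio of Vegfb to Vegfa counts in a library was -1.31 ± 0.19 in control and -1.77 ± 0.09 in aPU.1KO, lower in every aPU.1KO mouse (exact two-sided permutation p = 0.1, adjusted p = 0.4 over 4 ratios).

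Vegfc (ENSMUSG00000031520, chr8:54077606-54187096) was low, with 8.28, 8.19 and 9.28 CPM in control and 5.79, 3.35 and 6.06 CPM in aPU.1KO. The counts behind these values were 601, 187 and 234 in control and 114, 74 and 128 in aPU.1KO. Every aPU.1KO mouse was lower, with means of 8.58 ± 0.607 and 5.07 ± 1.498 CPM and a log2 fold change of -0.76 (SE 0.24, 95% interval -1.33 to -0.19, edgeR adjusted p = 0.117, DESeq2 adjusted p = 0.0368). Under the alternatives its adjusted p ran from 0.0368 to 0.389. The direction is thus opposite to that of Vegfa and Vegfb.

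Of the angiopoietins, Angpt2 (ENSMUSG00000031465, chr8:18690263-18741562), which is made mostly by endothelial cells and loosens vessels for remodelling, was at 7.78, 9.63 and 6.35 CPM in control and at 3.61, 6.10 and 5.49 CPM in aPU.1KO. The lowest control mouse lay just above the highest aPU.1KO mouse (log2 fold change -0.64, SE 0.25, 95% interval -1.23 to -0.05, edgeR adjusted p = 0.171, DESeq2 adjusted p = 0.107, up to 0.436 under the other alternatives). Angpt1 (ENSMUSG00000022309, chr15:42424723-42676977), which stabilizes vessels, was at 9.39, 2.98 and 12.9 CPM in control and at 4.02, 25.0 and 3.55 CPM in aPU.1KO. The spread within groups was larger than the difference between them, with coefficients of variation of 59.8% and 113% and a log2 fold change of 0.36 (95% interval -1.65 to 2.37, edgeR adjusted p = 0.816). Without aPU.1KO mouse 2, the highest, it was -1.17. Exons of Angpt1 overlap the antisense gene Gm17473 over 737 bases. The log2 ratio of Angpt2 to Angpt1 was 0.13 ± 1.40 in control and -0.52 ± 1.37 in aPU.1KO (exact two-sided permutation p = 0.6).

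Adm (ENSMUSG00000030790, chr7:110627661-110629820) was at 11.9, 11.8 and 11.9 CPM in control and at 12.1, 28.5 and 6.54 CPM in aPU.1KO. The control mice were nearly equal (863, 269 and 301 counts), with a coefficient of variation of 0.695%, below what counting noise alone typically gives. The aPU.1KO mice lay at, above and below them, with a coefficient of variation of 72.7%. The log2 fold change was 0.41 (95% interval -0.73 to 1.54, edgeR adjusted p = 0.625) and -0.35 without aPU.1KO mouse 2. The 10 immediate-early genes of the list for dissociation stress, which tissue digestion is known to induce, summed to 4868, 7452 and 2625 CPM in aPU.1KO mice 1, 2 and 3, the same order as Adm, and to 3277 to 4059 CPM in control, and none of these 10 genes had an unadjusted p under 0.05 (Ier2, the smallest, 0.0545). In control mice these genes summed to 3586, 4059 and 3277 CPM, while Adm differed too little between the mice for its order to be read. Vegfa followed the order of these genes in both groups, with mouse 2 highest and mouse 3 lowest. The part of this response in Adm and Vegfa was not tested.

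**Figure D2:**
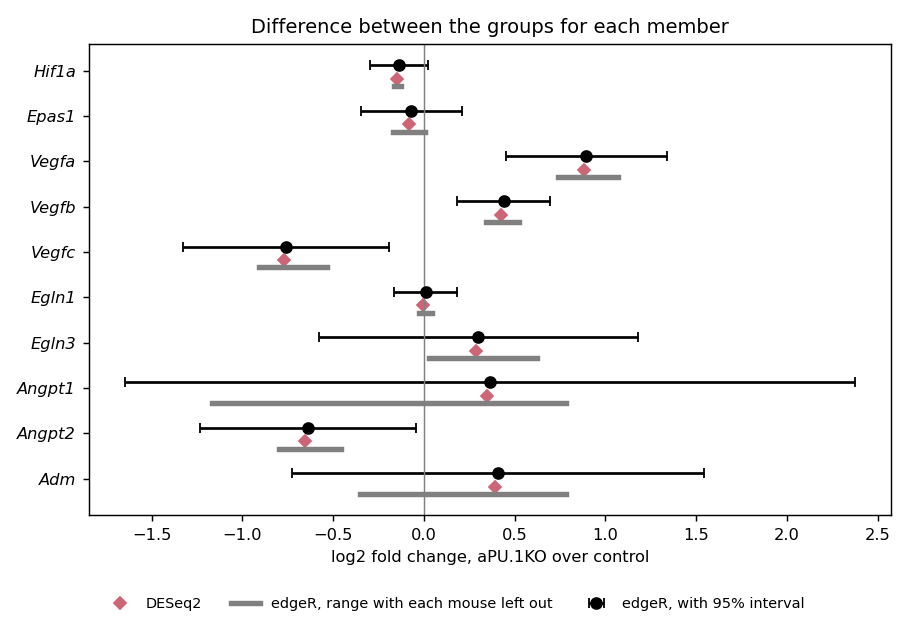
Log2 fold change, aPU.1KO over control (horizontal axis), of the 10 genes: black points with 95% intervals from edgeR, red diamonds from DESeq2 and grey bars for the range with each mouse left out. The intervals of Vegfa, Vegfb, Vegfc and Angpt2 lie on 1 side of 0, and the grey bars of Angpt1, Adm, Egln1 and Epas1 cross it.

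Per kilobase of exon in control mice, Epas1 was the highest member at 67.6 ± 4.85 CPM per kb (SD, n = 3), followed by Vegfb at 47.0, Vegfa at 44.1, Hif1a at 23.1, Egln1 at 22.7, Adm at 7.33, Vegfc at 3.50, Angpt2 at 2.15, Angpt1 at 1.62 and Egln3 at 1.39 CPM per kb. In that order, the mice of Vegfb and Vegfa overlapped, as did those of Hif1a and Egln1, Angpt2 and Angpt1, and Angpt1 and Egln3. In aPU.1KO the first was Vegfa, at 81.9 ± 14.6 CPM per kb, then Epas1 at 64.4 and Vegfb at 63.7 CPM per kb, and the mice of each of these overlapped with those of the next.

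The other genes of the pathway give these members their context. Of 12 HIF partners tested (hydroxylases, the VHL complex, ARNT and coactivators), 2 were higher and 0 lower at the unadjusted 0.05 threshold, a share near the 11.9% of all genes that were higher, and none passed an adjusted threshold with edgeR or DESeq2. The 2 were Egln2, the third hydroxylase, at 44.6, 46.5 and 48.3 CPM in control and 51.1, 67.5 and 59.7 CPM in aPU.1KO (log2 fold change 0.36, SE 0.11, edgeR adjusted p = 0.114), and Cul2, the scaffold of the VHL complex (0.22, edgeR adjusted p = 0.156). Crebbp, a coactivator, had a log2 fold change of -0.15 (edgeR adjusted p = 0.242).

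Of 33 known HIF targets tested, 0 passed the adjusted threshold of edgeR. At the unadjusted 0.05 threshold 7 were higher and 7 lower, where 11.9% and 13.7% of all genes were, and the median log2 fold change was 0.13. Among the higher were Slc2a3, Hk2, Ldha and Pdk1, which serve glucose uptake and glucose metabolism, Bnip3, a mitophagy receptor, and Stc2. Of these named genes DESeq2 passed Bnip3, with a log2 fold change in edgeR of 0.51. The 7 lower were Plod2, P4ha1 and Lox, enzymes that modify collagen, Hk1, Slc16a3, a lactate exporter, Car12 and Ankrd37, and DESeq2 passed all of these but Ankrd37. Hk1, Plod2 and Lox are named for the smallest p of the list, and the other targets were also chosen after their values were seen. Plod2 was at 12.4, 7.40 and 14.2 CPM in control and 6.15, 4.34 and 3.84 CPM in aPU.1KO (log2 fold change -1.25, edgeR adjusted p = 0.0796, DESeq2 adjusted p = 0.00163). Lox was at 139.8, 109.2 and 178.9 CPM in control and 81.0, 60.9 and 88.8 CPM in aPU.1KO (-0.89, edgeR adjusted p = 0.0803, DESeq2 adjusted p = 0.00208). For Hk1 the log2 fold change was -0.44 (edgeR adjusted p = 0.0783, DESeq2 adjusted p = 0.00614). These matrix enzymes are also made by fibroblast-like cells, whose 11 markers summed to 1423 to 1893 CPM in control and 752 to 1075 CPM in aPU.1KO, and the part of these cells was not tested.

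All 9 receptors tested had a negative log2 fold change, with a median of -0.48, and 4 were lower at an unadjusted p under 0.05, as were 13.7% of all genes. Nrp2, a co-receptor for VEGFC, was at 81.5, 56.3 and 73.5 CPM in control and 30.2, 27.8 and 36.7 CPM in aPU.1KO (log2 fold change -1.16, SE 0.17, edgeR adjusted p = 0.0701, DESeq2 adjusted p = 3.17e-07). Flt4, the receptor of VEGFC, was at 10.5, 13.5 and 9.002 CPM in control and 4.52, 8.27 and 5.92 CPM in aPU.1KO (-0.81, edgeR adjusted p = 0.118, DESeq2 adjusted p = 0.0333). Nrp1, a co-receptor for VEGFA, had a log2 fold change of -0.36 and Ramp2, the adrenomedullin co-receptor, one of -0.51 (edgeR adjusted p = 0.0783 and 0.102). The signalling receptor of VEGFA, Kdr, overlapped between the groups (-0.20, edgeR adjusted p = 0.751), as did Flt1 (-0.44) and the angiopoietin receptor Tek (-0.47). With each mouse left out, the log2 fold change of Kdr ran from -0.65 to 0.06, while Flt1 and Tek kept their sign. Flt4 was named after its values were seen, as were Kdr, Flt1 and Tek. The endothelial markers summed to 780, 857 and 627 CPM in control and 362, 760 and 471 CPM in aPU.1KO, lowest in aPU.1KO mouse 1, where Kdr (74.6 CPM) and Flt1 (43.9 CPM) were lowest too.

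At the unadjusted 0.05 threshold, 6 of 16 other angiogenic ligands were lower and 0 higher, beside 13.7% and 11.9% of all genes, with a median log2 fold change of -0.40. Pgf, a VEGF family ligand of FLT1, was at 3.03, 3.06 and 2.82 CPM in control and 1.58, 1.67 and 1.09 CPM in aPU.1KO (log2 fold change -1.04, SE 0.24, edgeR adjusted p = 0.0786, DESeq2 adjusted p = 0.00727). Pdgfd and the chemokine Cxcl12 had log2 fold changes of -0.94 and -0.83 (edgeR adjusted p = 0.0786 and 0.0803). The others were Vegfd (-0.33), a further ligand of FLT4, Apln (-0.71) and Lep (-0.77), the gene of leptin, named after their values were seen. Of 7 angiogenesis inhibitors 1, Vash1, was lower at that threshold (-1.06, edgeR adjusted p = 0.0783), and Col18a1 and Col4a3, whose products yield inhibitor fragments, were at -0.49 and -0.86 (edgeR adjusted p = 0.203 and 0.242).

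Counts were also set against marker counts of the same library, a comparison added after the data were seen. The adipocyte markers were themselves mostly higher in aPU.1KO, so a ratio to them is not a level per adipocyte. Over the summed adipocyte markers, of which Fabp4 held 36.0%, the log2 ratio of Vegfa was -7.23 ± 0.28 in control and -6.79 ± 0.11 in aPU.1KO (SD, n = 3), higher in every aPU.1KO mouse by 0.45 on average (exact two-sided permutation p = 0.1, adjusted p = 0.6 over 6 such ratios). For Vegfb it was -8.54 ± 0.10 and -8.56 ± 0.02, a difference of -0.02 (exact p = 0.8). With the mean of the log2 marker counts in place of their sum, the differences were 0.35 for Vegfa, again higher in every aPU.1KO mouse, and -0.12 for Vegfb, with overlap. Vegfc over the summed endothelial markers was -6.45 ± 0.33 in control and -6.69 ± 1.00 in aPU.1KO (exact p = 0.9), and Angpt2 was -6.58 ± 0.09 and -6.68 ± 0.27 (exact p = 0.7). The groups overlapped in both. The endothelial sum itself ran from 362 to 760 CPM in aPU.1KO, which widens these ratios. Vegfc was lowest in aPU.1KO mouse 2, where that sum was highest. These ratios therefore cannot tell whether Vegfc and Angpt2 followed the endothelial markers, and the part of endothelial cells was not tested. Adm and Angpt1 over adipocyte markers differed by -0.31 and -0.46 (exact p = 0.7 and 0.9).

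**Figure D3:**
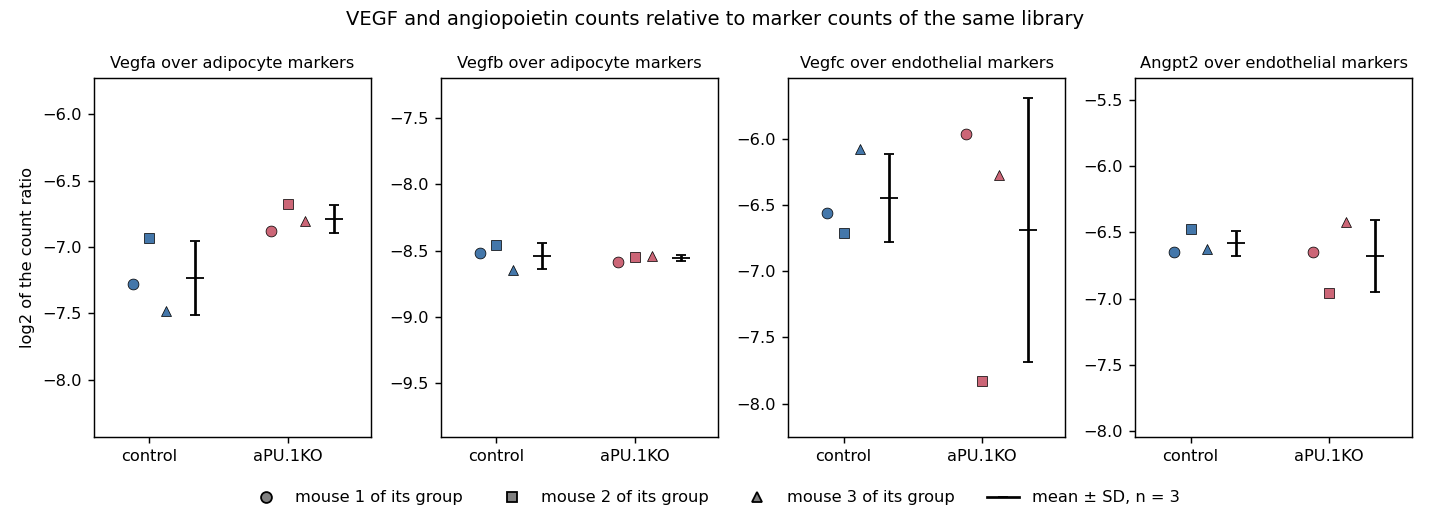
Log2 ratio of the counts of Vegfa and Vegfb to the summed adipocyte markers, and of Vegfc and Angpt2 to the summed endothelial markers (vertical axes of equal span), 1 point per mouse, with bars for mean and SD (n = 3). Of the 4 panels, only for Vegfa do the aPU.1KO mice lie wholly above the control mice, and Vegfc in aPU.1KO mouse 2 lies lowest, at -7.83.

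The 3 genes whose log2 CPM followed Vegfa most closely over the 6 libraries, among 11887 compared, were Rbm38, Rhbdd3 and Fcgrt, with Pearson r of 0.998, 0.997 and 0.997. These r are a description over libraries of 2 groups that themselves differ. Rbm38, an RNA-binding protein, was at 8.91, 12.0 and 8.65 CPM in control and 17.9, 24.4 and 16.4 CPM in aPU.1KO, with mouse 2 highest in each group, as for Vegfa. Rhbdd3 was at 13.4, 15.5 and 12.7 CPM in control and 18.5, 19.98 and 17.2 CPM in aPU.1KO, and Fcgrt, the neonatal Fc receptor, had a log2 fold change of 0.36.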

How the data were processed

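RNA of the epididymal adipocyte fraction of 6 mice, 3 per genotype, was sequenced with 1 library each. The authors deposited estimated counts, made with Salmon and summed to 35122 Ensembl genes as whole numbers, without normalization. The submitters' processing notes name GRCm38 and FastQC, and the Salmon version and annotation are not given in the sources used here. Symbols and coordinates are from GENCODE M21 (GRCm38), which matched 35031 genes, and unmatched genes hold 0.0367% of counts. Promoters are from RefSeq GRCm38.p6.

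Groups come from the genotype labels, and mice are numbered within a group in label order. The paper describes the controls as littermates, but which mice share a litter or a processing day is not given in the sources used here, so mice were compared unpaired. Libraries of a group differed beyond sampling noise (chi-square per degree of freedom 20.4 or more). Depth ranged from 20550252 to 69283842 counts, so low genes such as Vegfc rest on few counts in the shallower libraries. Tests used edgeR 4.0.16 in R 4.3.3 (filterByExpr filter, TMM factors, quasi-likelihood F test, Benjamini-Hochberg over 13925 genes). CPM are TMM-scaled, positive log2 fold changes mean higher in aPU.1KO, and levels per kb divide by the union of exons. Ratios of 2 genes used exact permutation tests (scipy 1.17.1). DESeq2 1.42.0, limma-voom 3.58.1, other filters and factors, robust dispersion and each mouse left out were alternatives. The pipeline was tested on simulated data.

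The members and lists were chosen with earlier results of these data known. The naming rule took all members, Spi1, the 3 genes with the smallest p of each list and any called, and the 3 most like Vegfa, with some markers left unnamed. Other HIF targets, receptors and ligands in the report lie outside it and were chosen after their values were seen. Arnt2, Car9, Epo, Ramp3, Sema3a and Ambp were listed but fell below the main edgeR filter. Of these, DESeq2 passed Ambp (log2 fold change -4.68, DESeq2 adjusted p = 0.00468). Values of some genes are not reported here. Lists covered HIF partners and targets, receptors, other ligands, inhibitors, immediate-early genes and 7 cell types (endothelial, mural, macrophage, progenitor, mesothelial, adipocyte, hepatocyte).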

Additional observations from a re-analysis of the deposited data

How the results depend on the processing

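Over 8 alternatives and 6 left-out mice, 123 of 140 member values kept their direction and side of the adjusted threshold, 4 came to pass it (Vegfa, Vegfb and Vegfc with DESeq2, Vegfa without control mouse 2) and 13 changed sign. Vegfa, Vegfb, Vegfc, Angpt2 and Hif1a kept their sign throughout, as did Egln3, whose log2 fold change of 0.30 nonetheless ran from 0.0268 (without control mouse 3; 0.0292 without aPU.1KO mouse 1) to 0.62 (without control mouse 2). Genes passing an adjusted p under 0.05 numbered 33 with edgeR, 5 with at least 10 counts in every library, 146 with no filter and 1867 with DESeq2, and 0 (without control mouse 1, with 1718 at an unadjusted p under 0.05) to 1193 (without control mouse 2) with a mouse left out. DESeq2 passed 3 of 10 members, 8 of 33 HIF targets, 4 of 9 receptors, 4 of 16 other ligands, 1 of 7 inhibitors and 2 of 15 endothelial markers. Of all 16100 genes it called 3.73% higher and 7.87% lower. The main edgeR fit passed 0 of each list, and with no filter edgeR passed 1 receptor. With a mouse left out, edgeR passed 0 to 1 members, 0 to 5 HIF targets, 0 to 1 receptors and 0 to 2 other ligands. In each case the most passed without control mouse 2, where 1193 of 14306 genes passed in all. The cause was not tested.

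Signs changed for values near 0 or resting on 1 mouse. The log2 fold change of Egln1 was -0.013 with 10 counts in every library, -0.0034 with DESeq2, -0.0043 with RLE factors, -0.0084 with no filter and -0.0301 to 0.0448 with a mouse left out (-0.0186, -0.0094, -0.0122 and -0.0301 without aPU.1KO mice 1 and 2 and control mice 1 and 3). Angpt1 was -0.11 with limma-voom, and with a mouse left out it ran from -1.17 (aPU.1KO mouse 2) to 0.79, with -0.04 for control mouse 2. The same range was -0.35 (aPU.1KO mouse 2) to 0.78 for Adm and -0.17 to 0.0037 (aPU.1KO mouse 1) for Epas1. For the log2 ratio of Epas1 to Hif1a the difference ran from -0.007 (aPU.1KO mouse 2) to 0.13, and for Angpt2 to Angpt1 from -1.23 to 0.129 (control mouse 2), with 0.106 for aPU.1KO mouse 2. The difference for Egln3 to Egln1 kept its sign but ran from 0.034 (control mouse 3) to 0.615 (control mouse 2). By the longest annotated transcript in place of the union of exons, control levels were 28.8 for Hif1a, 54.7 for Vegfa, 58.9 for Vegfb and 8.54 CPM per kb for Adm. No paired analysis was possible because the numbers 1 to 3 used here only name the mice of a group, the animal numbers in the labels differ in all 6, and the sources used here do not say which mice were littermates.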
